A study of Mus musculus with 8 samples.

Results

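The genes described here are 10 enzymes of steroid hormone metabolism read out in the liver of male and female mice: Hsd3b2, Hsd3b3 and Hsd3b5, which are linked genes of the 3-beta-hydroxysteroid dehydrogenase family, Hsd17b2, Hsd17b13, Hsd11b1, Srd5a1, Akr1d1, Akr1c6 and Cyp17a1. They were chosen by symbol, through the Ensembl gene ID of each row, and all 10 were found among the 49671 genes of the count table. All 10 also passed the filter on low counts that left 13117 genes for testing. The study compared wild-type (WT) mice with NT-KO mice, which are homozygous for a CRISPR/Cas9 deletion in Lbr that removes the usual start codon and the end of the intron before it. Lbr encodes the Lamin B receptor, an inner nuclear membrane protein whose C-terminal part is a sterol reductase of cholesterol synthesis, and this part was meant to be left intact. Livers were taken from C57BL/6 animals after weaning, frozen, and extracted as total RNA with Trizol, and the 8 libraries fall into 4 groups of 2, WT and NT-KO animals of either sex. The mutant line goes back to 1 male founder that was backcrossed to C57BL/6N, so every NT-KO library carries the same deletion event. The labels do not say how the replicates of a group were raised, and the spread between them is the only spread that the tests below know.

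The liver takes up steroid hormones from the blood and interconverts or inactivates them by oxidation and reduction at fixed positions of the ring system. Hydroxysteroid dehydrogenases exchange hydroxyl and keto groups, reductases saturate the A ring, and the products are then conjugated and excreted. In rodents many of these hepatic enzymes differ between the sexes, a difference tied to the pulsatile pattern of growth hormone in males and its steadier pattern in females.

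RefSeq promoters (250 bases before to 50 after the start, assembly GRCm38.p6) were available here for 8 of the 10 genes; Hsd17b2 and Cyp17a1 had no entry. They are shown for the 3 genes that were higher in males by the test given below and for Hsd3b3, the family member next to them that did not pass it. Capitals mark matches on either strand to 4 motifs picked with the sequences in view: the STAT5 palindrome TTCNNNGAA, the HNF4 core CAAAGT, the CCAAT box CCAAT and the TATA box TATAAA. All are on the minus strand and are written 5′ to 3′.
Hsd3b5, chr3:98645485-98645784: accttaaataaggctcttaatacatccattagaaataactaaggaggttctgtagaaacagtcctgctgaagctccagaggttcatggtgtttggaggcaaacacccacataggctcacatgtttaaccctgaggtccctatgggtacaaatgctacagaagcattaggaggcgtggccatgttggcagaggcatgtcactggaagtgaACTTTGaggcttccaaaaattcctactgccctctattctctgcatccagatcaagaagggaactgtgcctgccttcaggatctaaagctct
Hsd3b2, chr3:98724494-98724793: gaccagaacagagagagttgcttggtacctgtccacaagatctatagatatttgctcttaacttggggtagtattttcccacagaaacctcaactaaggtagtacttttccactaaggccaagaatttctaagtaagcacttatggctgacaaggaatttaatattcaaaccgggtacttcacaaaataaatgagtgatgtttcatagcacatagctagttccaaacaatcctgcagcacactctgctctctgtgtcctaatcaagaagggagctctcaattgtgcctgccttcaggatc
Hsd3b3, chr3:98763079-98763378: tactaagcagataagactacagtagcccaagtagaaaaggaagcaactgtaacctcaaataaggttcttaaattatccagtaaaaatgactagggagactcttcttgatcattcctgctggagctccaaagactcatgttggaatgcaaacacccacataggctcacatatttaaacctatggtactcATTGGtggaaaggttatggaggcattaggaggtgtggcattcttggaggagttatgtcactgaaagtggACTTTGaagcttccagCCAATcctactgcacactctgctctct
Srd5a1, chr13:69611414-69611713: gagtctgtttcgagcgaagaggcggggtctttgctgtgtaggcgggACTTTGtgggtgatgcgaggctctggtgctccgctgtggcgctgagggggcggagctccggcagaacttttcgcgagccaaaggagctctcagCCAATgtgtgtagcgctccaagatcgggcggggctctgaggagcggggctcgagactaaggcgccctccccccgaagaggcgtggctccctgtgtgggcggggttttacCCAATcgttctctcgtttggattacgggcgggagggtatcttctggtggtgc
The Srd5a1 promoter differed from the other 3 in composition, with 63.0% GC and 24 CpG dinucleotides, against 41.3% to 46.0% GC and 0 or 1 CpG in the Hsd3b promoters. No letters of the STAT5 palindrome, which 8.30% of all 32851 promoters in the table hold, were present in any of the 8 genes' promoters. The HNF4 core, found in 14.4% of all promoters, was present in Hsd3b5, Hsd3b3, Srd5a1 and Hsd17b13. The CCAAT box, found in 37.4%, was present in Hsd3b3, Srd5a1, Hsd11b1 and Akr1c6, and the TATA box letters, found in 13.6%, in Akr1c6. These motifs did not overlap each other in the sequences shown. Hsd3b3 has another RefSeq promoter, not shown, that starts 717 bases from its GENCODE start and holds the same motifs. The RefSeq start of Hsd3b5 lies 15282 bases upstream of the start of the GENCODE M21 gene, and that of Hsd11b1 lies 21715 bases inside the GENCODE gene, so the annotations do not place these promoters alike.

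Counts summed to between 45020377 and 64396291 per library, so that 1 count was worth 0.0147 to 0.0235 CPM (counts scaled to the TMM-corrected library size, as processed here) and a gene without a count could still reach 0.0442 to 0.0706 CPM (3 counts, for counting error only). Replicates differed far beyond sampling noise in every group. Xist was at 788 to 965 CPM in the female and 0.728 to 3.20 CPM in the male libraries, so that it separated the libraries by labelled sex, and Y-linked Ddx3y, Eif2s3y, Uty and Kdm5d had at most 10 counts in any female library. Lbr was at 6.52 to 8.04 CPM in the 4 WT libraries and 12.8 to 14.0 CPM in the 4 NT-KO libraries, so it was not lower in NT-KO, and since most of its exons lie outside the deletion, these counts do not check the deletion. The summed level of 8 hepatocyte markers was 81141 to 117815 CPM in every library.

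Measured as CPM per kilobase of exon, which allows levels of different genes to be set side by side, Akr1c6 was the most abundant of the 10 transcripts. Akr1c6, an aldo-keto reductase that acts as a 17-beta-hydroxysteroid dehydrogenase in mouse liver, had a mean of 612 CPM per kb (SD 127, n = 8) and did not overlap in any library with the next gene. Hsd11b1, which regenerates active glucocorticoid from its inert keto form, followed at 197 CPM per kb (SD 23.8), and also lay above the highest library of Hsd17b13, a lipid droplet protein of the 17-beta-hydroxysteroid dehydrogenase family, at 96.6 CPM per kb (SD 25.5). Akr1d1 at 63.1 (SD 19.3) and Hsd17b2 at 61.9 CPM per kb (SD 8.59) overlapped with Hsd17b13 and with each other. Srd5a1 at 26.0 (SD 12.2), Hsd3b3 at 22.2 (SD 3.27), Hsd3b2 at 17.5 (SD 11.1) and Cyp17a1 at 12.3 CPM per kb (SD 15.7) formed the low end, with overlapping ranges. The place of Hsd3b5 depended on sex. With 125 CPM per kb (SD 29.6, n = 4) it had the third highest mean of the 10 in males, and with 5.53 CPM per kb (SD 4.56, n = 4) it had the lowest mean in females. In female WT replicate 1 and female NT-KO replicate 2 it lay above Hsd3b2, at 8.84 and 9.99 against 7.92 and 8.67 CPM per kb. Dividing by the longest transcript in place of all merged exons raised Hsd11b1 to 424 and Akr1c6 to 891 CPM per kb, and left both in their places. The order further down depended on this choice. Hsd17b2 then had means of 94.1 in males and 86.3 in females, above Akr1d1 at 55.9 and 79.2 CPM per kb. Hsd3b3 rose to 31.7 in males and 28.0 CPM per kb in females.

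**Figure D1:**
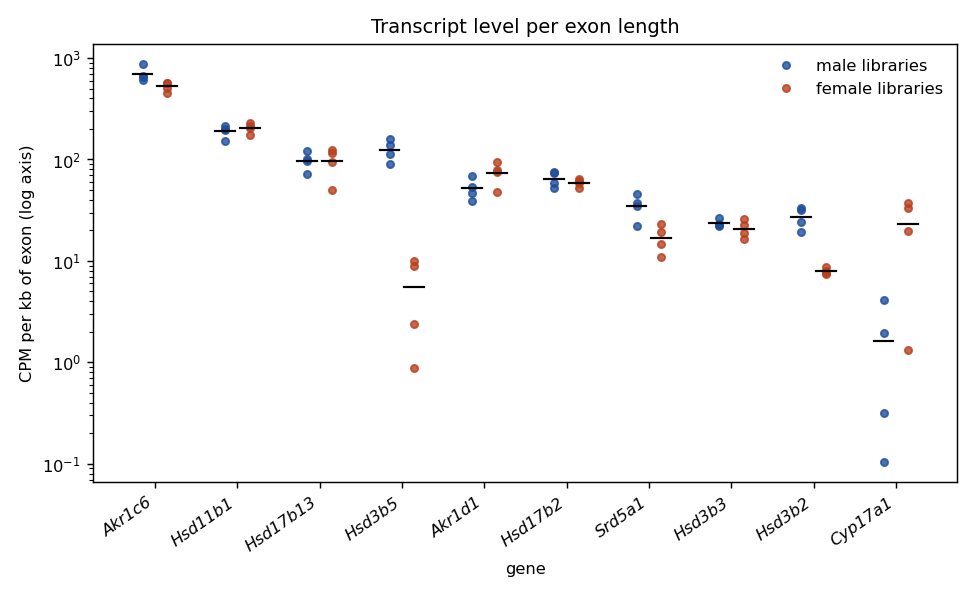
Transcript level of the 10 genes as CPM per kb of exon (log axis), ordered by the mean of all 8 libraries. Points are libraries, 4 male (blue) and 4 female (red), and bars are means; Hsd3b5 spans from 0.885 in a female library to 158 in a male library, whereas Hsd11b1 stays between 153 and 227.

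The sexes were first compared over both genotypes, and 3 of the 10 genes passed the threshold of this comparison (edgeR's quasi-likelihood F-test, Benjamini-Hochberg FDR of at most 0.05 over all tested genes, and an absolute log2 fold change over 1), all of them higher in males: Hsd3b5, Hsd3b2 and Srd5a1. Among all tested genes 4.19% passed it, 256 higher in males and 294 higher in females. In bulk liver RNA, fewer cells of a type and less RNA per cell cannot be told apart. The median log2 fold change (male minus female) was 0.14 over the 10 genes and 0.0094 over all tested genes. By their values alone, 3 of the 10 genes (Hsd3b2, Hsd3b5 and Akr1c6) had all 4 male libraries above all 4 female libraries, a pattern that 7.78% of tested genes showed, and 0 had all female libraries above all male ones, which 8.26% showed.

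**Figure D2:**
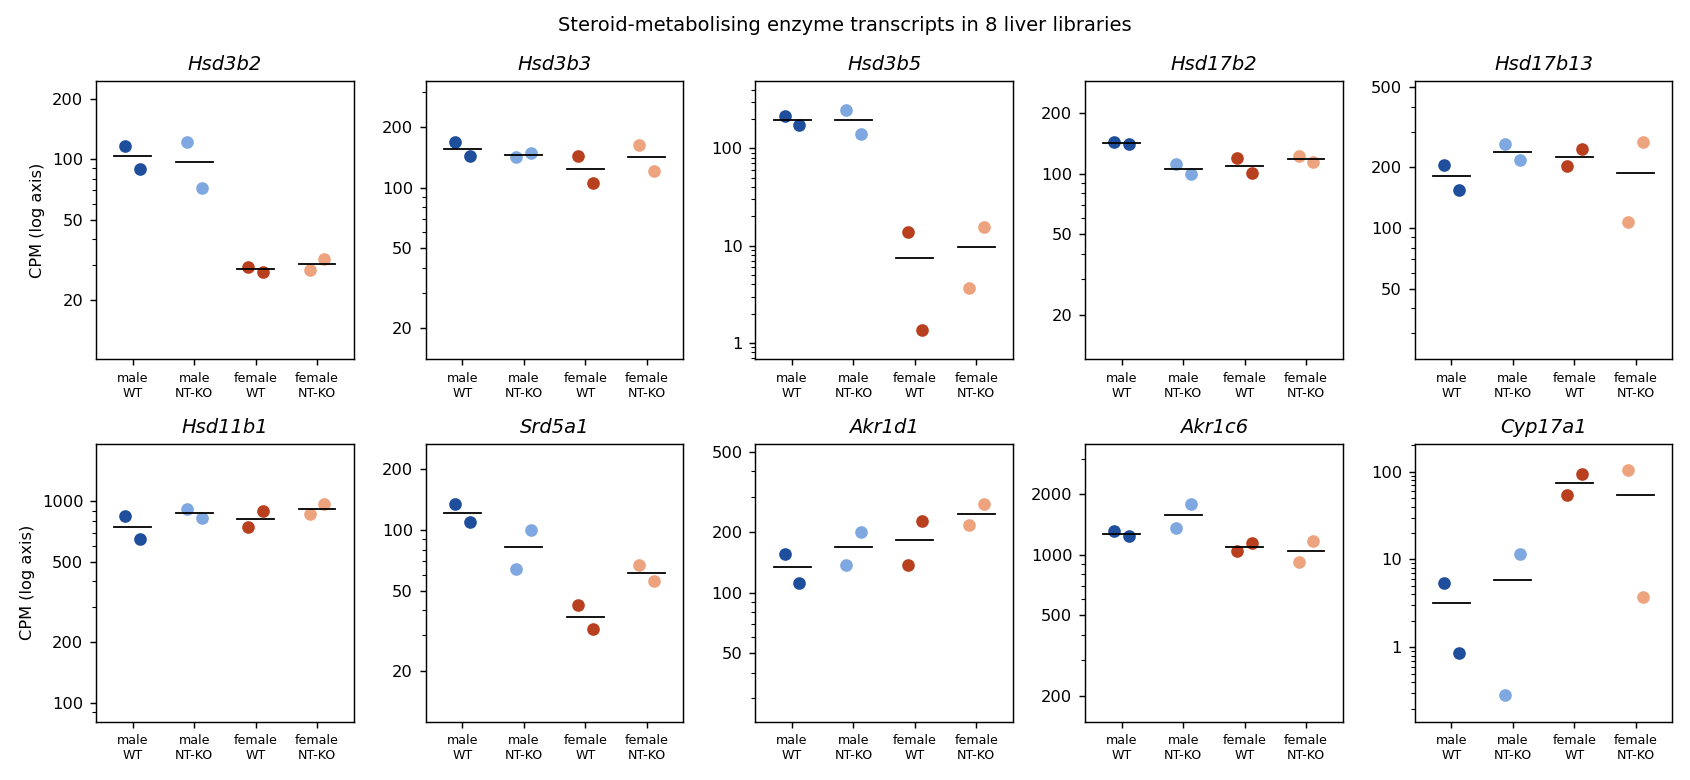
Level of each of the 10 genes as CPM on a log axis, by sex and genotype. Points are the 2 libraries of a group and bars their mean; the sexes separate fully for Hsd3b2, Hsd3b5 and Akr1c6, and Cyp17a1 varies within groups by up to 5.17 on the log2 scale.

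Hsd3b5 (ENSMUSG00000038092), on the minus strand of chromosome 3 from 98618634 to 98630252, encodes a family member that works mainly as a reductase of ketosteroids and is known as a male-specific liver transcript in mice. It was at 216 and 174 CPM (male WT), 245 and 141 (male NT-KO), 13.7 and 1.37 (female WT) and 3.70 and 15.5 (female NT-KO). Every male library was above every female library, and the female libraries differed among themselves by a factor of 11.3, against 1.74 among the males. The log2 fold change between the sexes was 4.51 (SE 0.739, edgeR FDR 0.00976), a fold of 22.8. It lost its call with edgeR's robust dispersion (FDR 0.0587) and without female NT-KO replicate 1, at a log2 fold change of 4.16. Dropping female WT replicate 1 gave a log2 fold change of 5.74. An exact permutation test of the 4 male against the 4 female values gave p = 0.0286 (two-sided). This is the smallest p that this design allows, and any full separation of the sexes gives it. Of all 50-base stretches of its transcripts, 21.2% also occur in another gene, 18.2% in the gene model Gm10681, with Hsd3b4 as the next source. The coding sequence of Hsd3b4 is 95.2% identical, but Hsd3b4 had 0 to 3 counts in any library.

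Hsd3b2 (ENSMUSG00000063730, chromosome 3 from 98709255 to 98724543, minus strand) encodes an enzyme of the dehydrogenase and isomerase type, the kind that turns pregnenolone and its relatives into keto hormones. It was at 117 and 89.8 CPM (male WT), 122 and 71.9 (male NT-KO), 29.3 and 27.7 (female WT) and 28.3 and 32.0 (female NT-KO). The female values lay within a factor of 1.16 of each other, and the lowest male library was above the highest female one. The log2 fold change was 1.77 (SE 0.183, edgeR FDR 0.000936), or 3.40-fold, and the exact permutation test again gave p = 0.0286. Leaving out any single library gave values from 1.55 to 1.93, which passed every time.

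Hsd3b3 (ENSMUSG00000062410, chromosome 3 from 98741523 to 98763127, minus strand) shares 95.1% of the aligned coding sequence with Hsd3b2 and 79.7% with Hsd3b5. Its levels were 169 and 143 CPM (male WT), 143 and 149 (male NT-KO), 143 and 105 (female WT) and 164 and 122 (female NT-KO). The sexes overlapped, and the log2 fold change of 0.18 (SE 0.157, edgeR FDR 0.510) did not pass. Of the 50-base stretches of Hsd3b2, 26.9% also occur elsewhere, with Hsd3b3 as the largest single source and Hsd3b6 as the next, and of those of Hsd3b3 8.73% do, mostly in Hsd3b2. How the authors treated reads that match several genes is not given in the sources used here, so some reads could have been split between these neighbours. Exons of Zfp697 on the opposite strand overlap both genes; it had 100 to 186 counts per library, against at least 1604 for Hsd3b2. Hsd3b6, an enzyme of the same type, had 3 to 11 counts per library.

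Within the summed CPM per kb of the 3 linked genes, Hsd3b5 took 68.0% to 74.1% in the male libraries and 3.57% to 26.5% in the female libraries. Hsd3b3 took 10.4% to 17.5% in males and 50.5% to 71.8% in females. Hsd3b2 took 14.6% to 16.0% in males and 20.2% to 30.2% in females, although its level was higher in males. The shares show which transcript dominated in a library and not its amount. They rest on the length of all merged exons. With the longest transcript in its place, only Hsd3b3 of the 3 would have a shorter length, and so a larger share.

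**Figure D3:**
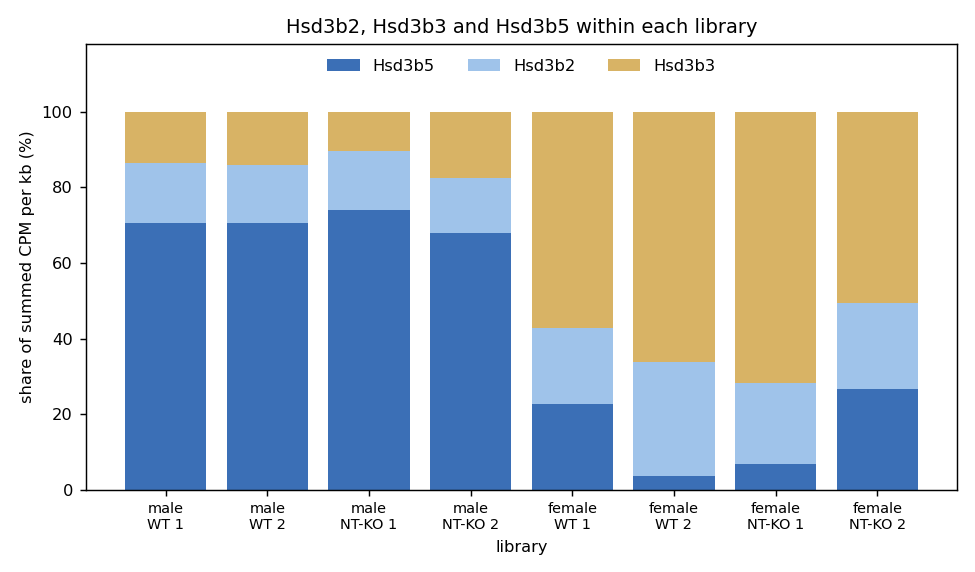
Share of the summed CPM per kb of Hsd3b2, Hsd3b3 and Hsd3b5 taken by each gene (stacked bars, percent) in each of the 8 libraries. Hsd3b5 holds 68.0% or more in each male library and Hsd3b3 holds 50.5% or more in each female library.

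Srd5a1 (ENSMUSG00000021594, chromosome 13 from 69573449 to 69611442, minus strand) encodes the steroid reductase that turns testosterone into dihydrotestosterone and starts the breakdown of other keto steroids. It was at 134 and 109 CPM (male WT), 63.9 and 100.2 (male NT-KO), 42.3 and 32.2 (female WT) and 66.9 and 56.1 (female NT-KO). Male WT was highest and female WT lowest, and the NT-KO libraries of the sexes lay in between and overlapped. Over both genotypes the log2 fold change was 1.06 (SE 0.179, edgeR FDR 0.0112), close to the threshold of 1. It fell to 0.92 with library size in place of TMM and to 0.88 when male NT-KO replicate 2 was dropped, and the call was also lost on dropping male WT replicate 1, female WT replicate 2 or female NT-KO replicate 2. The exact permutation test gave p = 0.0571. A sense-overlapping gene, Gm17108, shares 15.1% of the 50-base stretches of Srd5a1 and had 7 to 15 counts per library.

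Cyp17a1 (ENSMUSG00000003555, chromosome 19 from 46667165 to 46673172, minus strand) encodes the hydroxylase and lyase that leads to androgen precursors in gonads and, in other species, adrenals. It was at 5.45 and 0.870 CPM (male WT), 0.286 and 11.5 (male NT-KO), 54.2 and 92.6 (female WT) and 104 and 3.70 (female NT-KO). Of the 4 female libraries, 3 were above every male library, and female NT-KO replicate 2 lay within the male range. Replicates of a group differed by 0.76 to 5.17 on the log2 scale, where the median tested gene differed by 0.19 to 0.29. The log2 fold change of -3.85 (SE 1.21, edgeR FDR 0.0879) did not pass, nor did the exact permutation test (p = 0.0857). It passed under edgeR's likelihood ratio test (FDR 0.0087) and DESeq2 (FDR 0.0344), and leaving out single libraries moved it to -1.92 (female NT-KO replicate 1) and -6.04 (male NT-KO replicate 2). Of 9 adrenal and gonad markers 4 (Cyp11b1, Cyp11b2, Nr5a1 and Mc2r) had no count in any library. Only 2 (Star and Cyp21a1) passed the filter on low counts, and the rest had some counts but were too low to be tested. Star had a log2 fold change of -0.11 between the sexes (SE 0.160, edgeR FDR 0.691). The summed level of the 9 was 8.95 to 16.8 CPM in males and 2.76 to 3.51 CPM in females, opposite in direction to Cyp17a1, and the higher male sum came from Cyp21a1, described with the P450s below. Hsd3b1 and Akr1b7, also known from adrenal cortex, were too low to be tested and were named after their values were seen. They differed between the sexes in the direction of Cyp17a1, opposite to Cyp21a1 of the marker list. Hsd3b1 had 25 to 150 counts in female and 0 to 3 in male libraries, and Akr1b7, an aldo-keto reductase, had 16 to 29 and 1 to 6. Among the female libraries Hsd3b1 did not follow Cyp17a1. It was at 2.74 and 0.442 CPM in female WT replicates 1 and 2. In female NT-KO replicate 1, where Cyp17a1 was highest, it was at 0.436 CPM. In female NT-KO replicate 2, where Cyp17a1 was lowest of the females, it was at 0.872 CPM. The part of these genes in the Cyp17a1 values was not tested.

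Akr1c6 and Akr1d1 differed between the sexes by less than the fold threshold. Akr1c6 (ENSMUSG00000021210, chromosome 13 from 4434306 to 4457877) was at 1314 and 1235 CPM (male WT), 1360 and 1779 (male NT-KO), 1041 and 1142 (female WT) and 919 and 1164 (female NT-KO). All male libraries were above all female ones, a pattern that 7.78% of tested genes showed. The log2 fold change of 0.40 (SE 0.151, edgeR FDR 0.137) did not pass. The exact permutation test gave p = 0.0286, which any full separation gives in this design, so it only restates the separation. Its near relative Akr1c20, with 92.3% identity over the aligned coding sequence, shares 1.39% of its 50-base stretches and was at 105 to 141 CPM as a group mean. Akr1d1 (ENSMUSG00000038641, chromosome 6 from 37530173 to 37568815), the reductase of bile acid synthesis and steroid clearance that acts on the A ring in the beta orientation, was at 155 and 112 CPM (male WT), 137 and 201 (male NT-KO), 138 and 227 (female WT) and 216 and 274 (female NT-KO). The sexes overlapped, and the log2 fold change was -0.50 (SE 0.214, edgeR FDR 0.179).

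The other 3 genes had log2 fold changes between the sexes of less than 0.15 in size, and none passed. Hsd11b1 (ENSMUSG00000016194, chromosome 1 from 193221634 to 193264075) ranged from 649 to 918 CPM in males and from 743 to 966 CPM in females, a log2 fold change of -0.11 (SE 0.146). Hsd17b2 (ENSMUSG00000031844, chromosome 8 from 117701904 to 117759027), which oxidises estradiol and testosterone to their less active keto forms, ranged from 99.7 to 144 CPM in males and from 101 to 122 CPM in females, a log2 fold change of 0.10 (SE 0.116) that changed sign with library size in place of TMM. Hsd17b13 (ENSMUSG00000034528, chromosome 5 from 103955440 to 103977410) ranged from 155 to 261 CPM in males and from 107 to 268 CPM in females, and its log2 fold change of 0.0099 (SE 0.268) took either sign depending on the library left out. Its lowest and highest female libraries were the replicates of female NT-KO, at 107 and 268 CPM.

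Taken separately, the genotypes gave 3 genes past the threshold in WT (Hsd3b2, Hsd3b5 and Srd5a1) and 1 in NT-KO (Hsd3b2), where 4.68% and 1.78% of all tested genes passed. Hsd3b2 was higher in males by 1.85 (SE 0.259, FDR 0.00821) in WT and by 1.68 (SE 0.258, FDR 0.0157) in NT-KO on the log2 scale. Hsd3b5 was higher by 4.70 (SE 1.05, FDR 0.0406) in WT, and in NT-KO its log2 fold change was 4.32 (SE 1.03) with an FDR of 0.109 from edgeR's quasi-likelihood F-test and of 0.0011 from its likelihood ratio test. Srd5a1 was higher by 1.71 (SE 0.257, FDR 0.0108) in WT and stood at 0.41 (SE 0.250, FDR 0.724) in NT-KO. Each of these calls was lost with some library left out, in fits in which fewer of all tested genes passed. Such a fit leaves 1 library in a group, so only its effect sizes are given. In WT, the log2 fold changes without female WT replicate 2 were 1.81 for Hsd3b2, 3.82 for Hsd3b5 and 1.52 for Srd5a1. Without female WT replicate 1 that of Hsd3b2 was 1.90. That of Hsd3b5 was 4.55 and 4.83 without male WT replicates 1 and 2, and 4.69 without either female NT-KO library. Hsd3b5 also lost its call in WT with robust dispersion (FDR 0.111) or only the 2 groups compared (FDR 0.0618). Cyp17a1 passed in WT, lower in males, under the likelihood ratio test (FDR 0.0481) and with only the 2 groups compared (FDR 0.0451). In NT-KO, Hsd3b2 did not pass without female NT-KO replicate 1 (FDR 0.172) or replicate 2 (FDR 0.109), whereas Hsd3b5 passed once either female WT library was dropped (FDR 0.0186 and 0.0188). A group left with 1 library is assumed to vary like the others. That a gene passed in one genotype and not in the other is no test of their difference, which follows below.

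**Figure D4:**
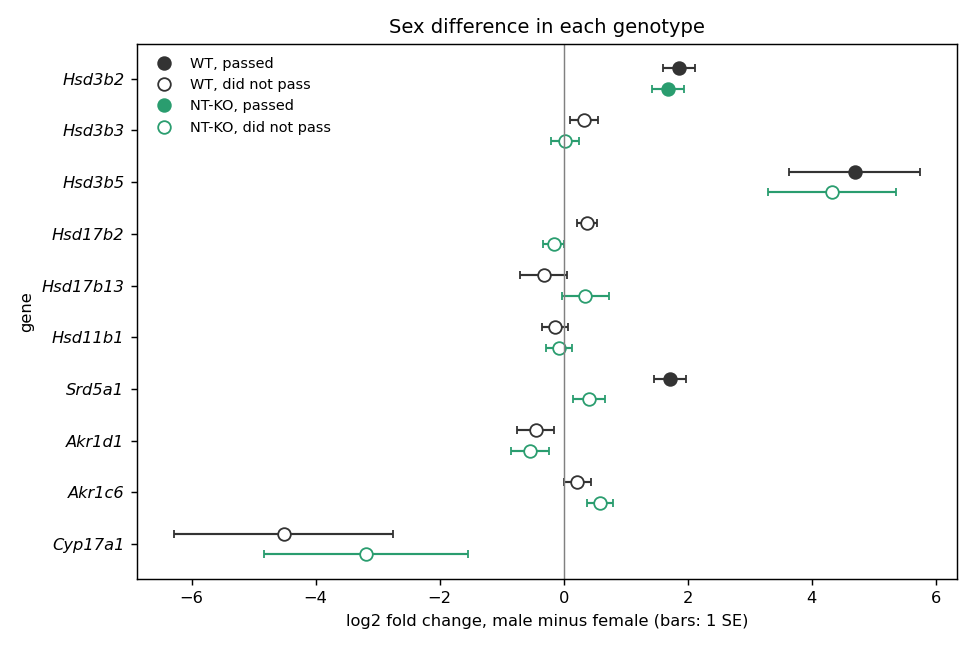
Log2 fold change of the 10 genes, male minus female, in WT (dark) and NT-KO (green), with bars of 1 SE on either side. Filled points passed the FDR and fold threshold, open points did not; Hsd3b2 and Hsd3b5 lie on the male side in both genotypes, and Srd5a1 stands at 1.71 in WT and 0.41 in NT-KO.

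Loss of the LBR N-terminus was compared with WT within each sex. None of the 10 genes passed in males or in females, under edgeR's quasi-likelihood test, its likelihood ratio test or DESeq2, where the share of all tested genes that passed depended on the test. In males it was 0.0152%, 1.56% and 1.66% under these 3 tests, and in females 0.00762%, 0.0839% and 0.0381%. At an unadjusted p under 0.05, 1 of the 10 genes (Hsd17b2) differed in males, where 11.5% of tested genes did, and 1 (Srd5a1) in females, where 1.55% did. The NT-KO libraries lay outside the WT range for 4 of the 10 genes in males (Hsd17b2 and Srd5a1 lower, Hsd17b13 and Akr1c6 higher) and for 1 in females (Srd5a1 higher), where 38.9% and 26.4% of tested genes showed such a gap. The median log2 fold change (NT-KO minus WT) of the 10 genes was 0.11 in males and 0.13 in females, and that of all tested genes was 0.012 and 0.0012.

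Hsd17b2 was at 144 and 141 CPM in WT males and at 112 and 99.7 CPM in NT-KO males. Its log2 fold change was -0.43 (SE 0.164, edgeR FDR 0.385) in males and 0.11 (SE 0.164, FDR 1) in females, where the genotypes overlapped at 119 and 101 CPM in WT and 122 and 114 CPM in NT-KO. Srd5a1 had a log2 fold change of -0.57 (SE 0.251, FDR 0.436) in males and 0.73 (SE 0.252, FDR 1) in females. The estimates were least certain for Cyp17a1, at 0.88 (SE 1.60) in males and -0.44 (SE 1.50) in females, and for Hsd3b5, at -0.016 (SE 0.898) and 0.36 (SE 0.922). For the other genes (Hsd3b2, Hsd3b3, Hsd17b13, Hsd11b1, Akr1d1 and Akr1c6) the log2 fold changes lay between -0.10 and 0.41 in males and between -0.26 and 0.43 in females.

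**Figure D5:**
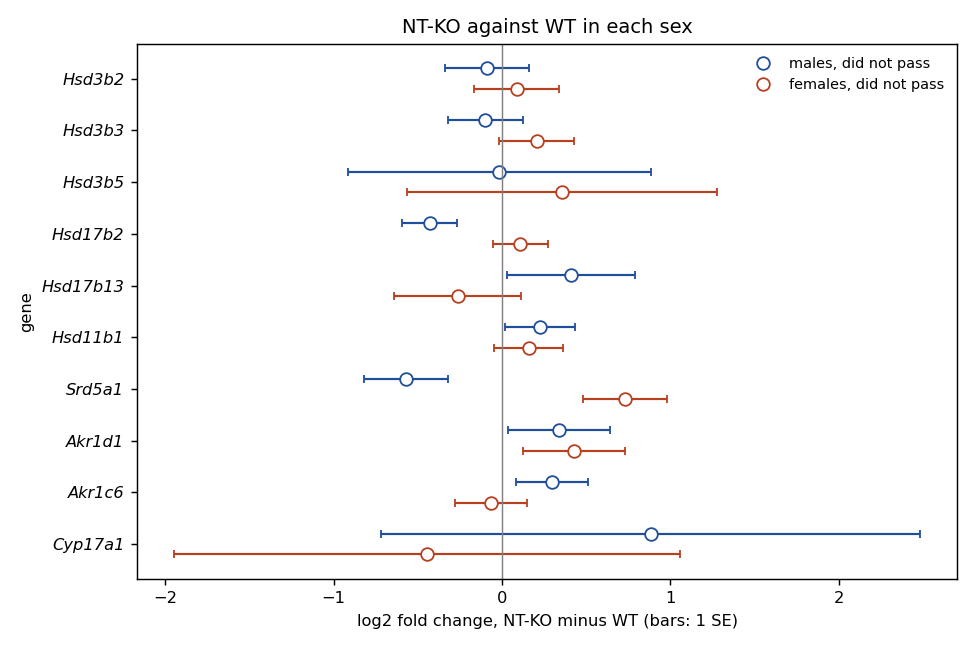
Log2 fold change of the 10 genes, NT-KO minus WT, in males (blue) and females (red), with bars of 1 SE on either side. No point passed the FDR and fold threshold, and the estimates of Srd5a1 lie on opposite sides of 0, at -0.57 in males and 0.73 in females.

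The difference of the NT-KO effect between the sexes, which is also the difference of the sex effect between the genotypes, was tested as an interaction at an FDR of at most 0.05, and 0 of the 10 genes passed under edgeR's quasi-likelihood test, likelihood ratio test or DESeq2, where 0.0152%, 0.351% and 0.473% of all tested genes passed. At an unadjusted p under 0.05, which 7.2% of tested genes reached, there were 2, Srd5a1 with -1.30 (SE 0.355, edgeR FDR 0.573) and Hsd17b2 with -0.54 (SE 0.232, edgeR FDR 0.688). Both were lower in male NT-KO than in male WT relative to the same difference in females. Blood markers had estimates of the same sign, with the beta-globin gene Hbb-bs at -1.50 (SE 0.522, edgeR FDR 0.641) for the interaction and at -1.07 (SE 0.371, edgeR FDR 0.344) for NT-KO vs WT in males, and their part in the Srd5a1 and Hsd17b2 values was not tested. The remaining estimates ran from -0.37 (SE 1.29) for Hsd3b5 to 1.33 (SE 2.19) for Cyp17a1.

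Other genes of steroid metabolism were read from lists in the comparison of the sexes over both genotypes. Of 21 other hydroxysteroid dehydrogenases 8 were tested, and 1 was higher in females: Rdh16, a retinol dehydrogenase that also oxidises hydroxysteroids, with means of 28.2 ± 6.85 CPM in WT males (SD, n = 2), 52.7 ± 26.3 in NT-KO males, 135 ± 47.6 in WT females and 152 ± 7.42 in NT-KO females. Of 15 steroid P450s and electron donors 10 were tested, and 2 were higher in males. Cyp7b1, the oxysterol hydroxylase of the alternative bile acid pathway, was at 689 ± 88.9 and 389 ± 210 CPM in WT and NT-KO males, and at 34.0 ± 5.14 and 43.6 ± 13.5 CPM in the female groups, a log2 fold change of 3.74 (SE 0.295). Cyp21a1, the adrenal steroid hydroxylase, has a near-identical pseudogene copy, which makes its counts uncertain. It was at 10.9 ± 4.73 and 7.27 ± 1.46 CPM in the male groups and at 0.108 ± 0.0278 and 0.151 ± 0.0832 CPM in the female ones, a log2 fold change of 6.12 (SE 0.347). Of 12 further aldo-keto and steroid reductases 8 were tested, and 0 passed under edgeR's quasi-likelihood test, with 4 at an unadjusted p under 0.05, all 4 higher in males. Of all tested genes, 26.9% were at such a p, and 13.1% were so and higher in males.

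Of 14 steroid receptors and carriers 10 were tested, and 2 were higher in females, of which Serpina6 is given here. Serpina6, which encodes corticosteroid-binding globulin, was at 207 ± 33.0 and 321 ± 107 CPM in the male groups and at 647 ± 268 and 713 ± 57.7 CPM in the female groups, a log2 fold change of -1.40 (SE 0.237). The median log2 fold changes of the 4 lists were -0.28 (dehydrogenases), -0.082 (P450s), 0.20 (reductases) and -0.11 (receptors and carriers). In NT-KO vs WT 0 of their genes passed edgeR's quasi-likelihood test in either sex, where 0.0152% of all tested genes did in males and 0.00762% in females. At an unadjusted p under 0.05 there were 2 dehydrogenases, 2 receptors or carriers, 1 P450 and 0 reductases in males and 0 genes in females. Of all tested genes, 11.5% in males and 1.55% in females were at such a p. Of 20 liver genes known to differ between the sexes, listed as a reference, 7 were higher in males and 11 in females.

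Markers of other cells also differed between the sexes, and their part in the values above was not tested. The 4 blood markers summed to 402 to 867 CPM in male WT, 340 to 346 CPM in male NT-KO, 165 to 169 CPM in female WT and 154 to 284 CPM in female NT-KO. Of these Alas2 passed over both genotypes, higher in males (log2 fold change 3.22, SE 0.259, edgeR FDR 0.000248). The 6 Kupffer cell markers, none of which passed, summed to 125 to 223 CPM in males and 233 to 279 CPM in females. Bile duct markers summed to 26.8 to 59.8 CPM, and of these Epcam passed, higher in females (log2 fold change -1.12, SE 0.258, edgeR FDR 0.0377). Adipocyte markers summed to 5.56 to 12.6 CPM, and pancreas markers to 27.9 to 38.8 CPM in males and 13.7 to 20.9 CPM in females. Of the 5 pancreas markers Cela1 passed, higher in males (log2 fold change 1.02, SE 0.163, edgeR FDR 0.00856). Only this 1 was past the filter on low counts, and 1 had no count in any library. The pancreas sum therefore does not speak for the markers as a set. The hepatocyte sum overlapped between the sexes.

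The genes whose log2 CPM ran most closely with each enzyme over the 8 libraries were listed by Pearson's r, as a description, since the libraries share sex and genotype. For Hsd3b2 these were Ces3a (r = 0.995), Gm13773 (0.993) and Fam213b (0.988). For Hsd3b5 they were Fgd6 (0.989), Serpine2 (0.988) and Serpina1e (0.978), the last a gene of the reference list. For Srd5a1 they were Erc1 (0.983), Gm14403 (0.982) and Flrt1 (0.972), and for Cyp17a1 Fbln2 (0.970), Atp2b2 (0.961) and Stap1 (0.959). Akr1d1 ran with Gstz1 (0.985), Cryz (0.982) and Pik3cb (0.982), and Akr1c6 with Iws1 (0.967), Sgpp1 (0.966) and Spag9 (0.965). Hsd3b3 had the lowest top values, with Zfp810 (0.934), Dcun1d3 (0.910) and Fryl (0.893). Hsd17b2 ran with Hopx (0.957), Cdc25a (0.956) and Gm6210 (0.950), Hsd17b13 with Khnyn (0.968), Chrna1os (0.938) and Dis3l (0.938), and Hsd11b1 with Klhl20 (0.965), Daam1 (0.959) and Ppp1cc (0.958).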

How the data were processed

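Liver RNA of 8 mouse samples was sequenced (TruSeq libraries). Per the labels, the authors used FastQC, cutadapt, STAR 2.6.1a and featureCounts on GRCm38, and the deposited values are raw read counts per gene, not normalized. The strand setting and the treatment of multiply matching reads are not given in the sources used here. Of 49671 gene IDs, 49326 matched GENCODE M21, which gave symbols, positions and exon lengths.

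Here counts were analysed in R 4.3.3 with edgeR 4.0.16. Genes reaching 1 CPM in 2 or more libraries were tested, without rRNA, miRNA and mitochondrial genes, leaving 13117. After TMM scaling (factors 0.921 to 1.05), one quasi-likelihood fit with 4 group means, sharing its spread over all 8 libraries (common biological coefficient of variation 0.217), was tested by F-tests with Benjamini-Hochberg adjustment over all tested genes. CPM was scaled by TMM. A standard error is the log2 fold change divided by the root of F. Permutation tests used log2 CPM with a prior count of 2. The fit was also run on simulated counts with a common spread for all genes and changes between the sexes only. That run does not speak for genes with a wider spread or for changes between genotypes.

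The enzymes, gene lists, tests and alternatives were chosen with earlier results of these data known. Besides the enzymes, up to 5 genes past the threshold over both genotypes were named from each list by smallest FDR. The reference list was only counted. Also named were the 3 nearest by correlation for each enzyme, Lbr and sex-linked label checks, and genes sharing sequence with an enzyme. Alternatives were the likelihood ratio test, DESeq2 1.42.0, RLE factors, library size only, other filters, a replicate block, robust dispersion, other thresholds, only the groups compared, longest transcripts, and each library left out. Proteins and the promoters of Hsd17b2 and Cyp17a1 were not used here. One gene of the list of steroid receptors and carriers is not reported here.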

Additional observations from a re-analysis of the deposited data

Results flagged for a closer look

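For Srd5a1 the NT-KO libraries lay on opposite sides of WT in males and in females. Both male NT-KO libraries were below both male WT libraries, whereas both female NT-KO libraries were above both female WT libraries. A gap between the genotypes, in either direction, was shown by 38.9% of tested genes in males and 26.4% in females. The share of tested genes with opposite gaps in the sexes was not counted, and the 10 genes were searched for this pattern. The difference of the effects was -1.30 on the log2 scale (SE 0.355), with an edgeR FDR of 0.573 over all tested genes, so it did not pass. Leaving out male NT-KO replicate 2 moved it to -1.67, and leaving out replicate 1 of that group to -1.01. For lone libraries, the 10 genes were each examined in the 4 male and the 4 female libraries (20 groups, Dixon's gap ratio), and 0 were found, where chance alone gives about 1 in 20.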

How the results depend on the processing

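The replicate numbers did not pair the libraries (correlations of same-numbered deviations from -0.18 to 0.21). A replicate block left 3 genes past the threshold over both genotypes, 2 in WT (Hsd3b5, at 4.90, was lost) and 1 in NT-KO, and changed no other call. Of all 13117 tested genes, 537, 523 and 205 passed with the block in these comparisons. In WT, 1 gene passed at an FDR of 0.01, as did 159 of all 13117 tested genes. With a library left out, log2 fold changes in WT ran from 1.67 to 2.03 for Hsd3b2 and from 1.52 to 1.92 for Srd5a1. Those of Hsd3b5 ran from 3.82 to 7.15. In NT-KO, 2 passed under the likelihood ratio test or DESeq2, as did 410 and 401 of all 13117 tested genes. With only the 2 groups compared 2 passed, beside 219 of all 12733 genes then tested. Without a filter 3 passed, beside 825 of 29724, and at an FDR of 0.01 it was 0, beside 121 of 13117. With a library left out, the log2 fold change of Hsd3b2 in NT-KO ran from 1.25 to 2.00. Without a filter 2 passed the interaction (Srd5a1 and Cyp17a1), beside 552 of all 29724 genes then tested. In that fit the prior degrees of freedom were infinite, against 4.18 in the main fit, so that no gene kept a spread of its own.

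With library size only, log2 fold changes near 0 changed sign: over both genotypes Hsd17b2 (-0.030) and Hsd17b13 (-0.12), in NT-KO between the sexes Hsd3b3 (-0.068), for NT-KO vs WT in males Hsd3b5 (0.051), and for the interaction Akr1d1 (0.0010).

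With 1 library left out, other values took either sign; the cause was not tested. Between the sexes these were Hsd17b13 over both genotypes (-0.25 to 0.41), Hsd11b1 in WT (-0.32 to 0.028), and in NT-KO Hsd3b3 (-0.18 to 0.26), Hsd17b13 (-0.17 to 1.15), Hsd11b1 (-0.15 to 0.0070) and Cyp17a1 (-7.57 to 0.67). For NT-KO vs WT in males they were Hsd3b2 (-0.52 to 0.24), Hsd3b3 (-0.21 to 0.014), Hsd3b5 (-0.47 to 0.33) and Cyp17a1 (-3.49 to 2.75). In females they were Hsd3b2 (-0.00068 to 0.17), Hsd3b3 (-0.032 to 0.45), Hsd3b5 (-1.01 to 2.81), Hsd17b2 (-0.013 to 0.24), Hsd17b13 (-1.07 to 0.25), Akr1c6 (-0.24 to 0.092) and Cyp17a1 (-4.31 to 0.51). For the interaction they were Hsd3b2 (-0.61 to 0.14), Hsd3b5 (-2.83 to 1.00), Hsd11b1 (-0.10 to 0.25), Akr1d1 (-0.49 to 0.22) and Cyp17a1 (-3.06 to 5.19).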

Other observations

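Within each sex, the library with the highest Cyp17a1 was not the one with the highest Hsd3b5. Among females, Cyp17a1 was highest in female NT-KO replicate 1 (104 CPM) and female WT replicate 2 (92.6 CPM), which had the lowest Hsd3b5 (3.70 and 1.37 CPM). The other female libraries had 54.2 and 3.70 CPM of Cyp17a1 and 13.7 and 15.5 CPM of Hsd3b5. Among males, male NT-KO replicate 2 had the highest Cyp17a1 (11.5 CPM) and the lowest Hsd3b5 (141 CPM), and male NT-KO replicate 1 had the lowest Cyp17a1 (0.286 CPM) and the highest Hsd3b5 (245 CPM). The male WT libraries went the other way. Replicate 1 was above replicate 2 in both Cyp17a1 (5.45 against 0.870 CPM) and Hsd3b5 (216 against 174 CPM). With 4 libraries per sex in separate clusters, no correlation was tested. This pair was chosen after its values were seen.

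Hsd3b1, a family member expressed mainly in gonads and adrenals, was low (at most 150 counts in any library) and had more counts in every female than in any male library, the opposite direction to Hsd3b2 and Hsd3b5. The coding sequences of Hsd3b1 and Hsd3b2 are 89.3% identical over the aligned length.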
